A study of Mus musculus with 4 samples.

Results

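The 9 genes described here encode the core of the Hedgehog signalling pathway: the ligands Shh, Ihh and Dhh, the receptor Ptch1, the signal transducer Smo, the transcription factors Gli1, Gli2 and Gli3, and Hhip, a membrane protein that binds the ligands. They were chosen by name, and every probe set whose annotation names that gene symbol alone was taken, which gave 21 probe sets of the 34945 that name 1 gene. They are 9 of 18193 genes with such a probe set. Levels were read on 4 Affymetrix mouse arrays. The arrays hold RNA of the tibialis anterior muscle (TA), which lifts the foot and is built mostly of fast fibres, and of the heart, from mice lacking MG56 and from wild-type mice. All mice were of the C57BL/6J background and were sampled on postnatal day 9. Material of 3 knockout mice was mixed for the knockout arrays, and the wild-type RNA was likewise mixed, from a number of mice that no source used here gives. Each combination of genotype and tissue was measured on 1 array, so no spread between mice can be computed, no test was made, and a ratio compares 2 pools.

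MG56 is another name of Hhatl, which belongs to the same family of membrane-bound O-acyltransferases as Hhat, the enzyme that attaches palmitate to the N terminus of Hedgehog ligands. In Hedgehog signalling, Ptch1 holds Smo inactive until a ligand binds Ptch1. Active Smo, acting in the primary cilium, shifts the balance of the Gli factors from repression to activation. Gli1, Ptch1 and Hhip are themselves transcribed in response, so that their RNA serves as a readout of pathway activity. In muscle, Hedgehog signals take part in the formation of myogenic cells in the embryo and in regeneration, and in the heart they act on the coronary vessels and the outflow tract.

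The targeted gene was lower in both knockout pools. Hhatl gave signals of 1078 in knockout TA, 5491 in wild-type TA, 880 in knockout heart and 2110 in wild-type heart, so the knockout arrays were 5.09-fold lower in TA and 2.40-fold lower in heart. Neither the labels nor the design text places its single probe set inside or outside the deletion, so what signal is left does not check the allele. Tissue markers followed the labels. All 11 skeletal muscle markers reached the floor on both TA arrays and 4 of 11 did on the heart arrays, while all 11 heart markers did on both heart arrays. The floor was the median of all signals, 101.3. A signal under it was raised to it before a ratio was taken, a gene was measured in a comparison when 1 or both arrays reached it, and a ratio against a raised signal is given as "at least". On each array, from 49.5% to 50.7% of probe sets lay at or above the floor.

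Of the 21 probe sets, 8 were at or above the floor on all 4 arrays, 2 on some arrays and 11 on none. These 11 had signals between 1.1 and 87.1. Counted by gene, 7 of the 9 had a probe set that reached the floor on at least 1 array, and Shh and Ihh had none. A gene with more than 1 probe set is represented below by its brightest, taken over the mean of the arrays. Signals of different probe sets cannot be set against each other, since each has its own affinity.

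**Figure D1:**
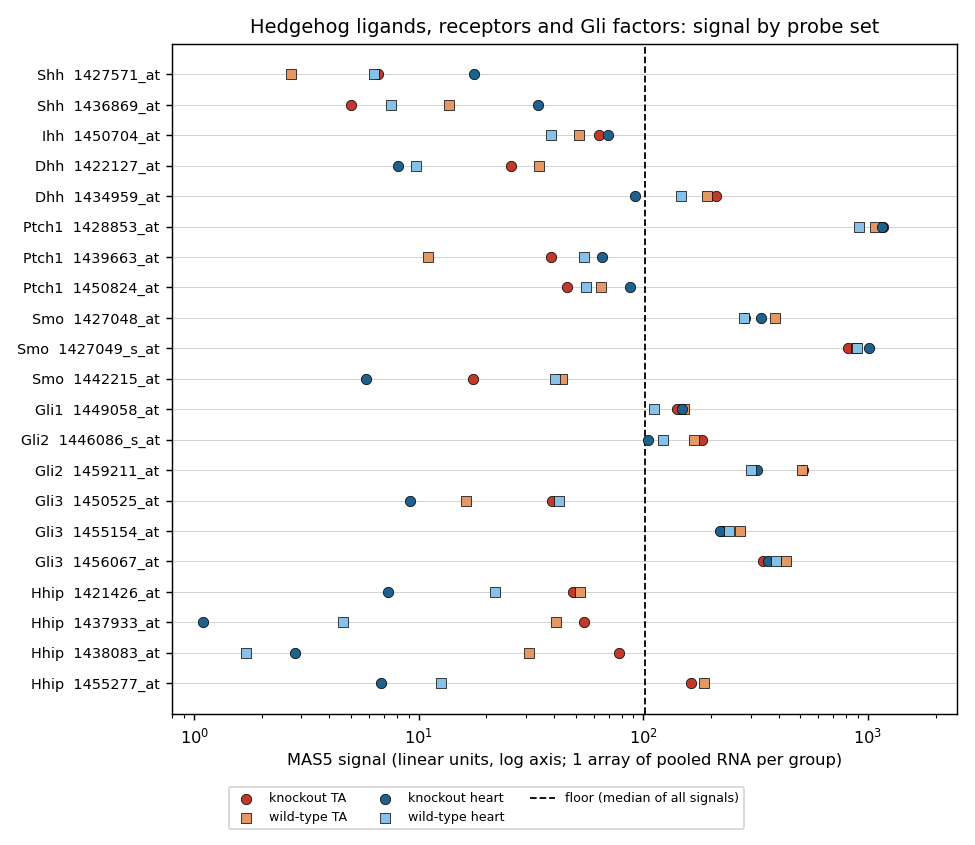
Signals of all 21 probe sets of the 9 genes on a log axis, with 1 point for each of the 4 arrays and the floor of 101.3 as a dashed line. Shh and Ihh lie left of the line on every array, and Hhip 1455277_at lies right of it on both TA arrays and far left of it on both heart arrays.

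Among the ligands, only Dhh was measured. Shh, the ligand that patterns limbs and the neural tube, gave 5.0 in knockout TA, 13.7 in wild-type TA, 34.0 in knockout heart and 7.5 in wild-type heart on 1436869_at. Its other probe set, 1427571_at, ran from 2.7 to 17.6. Signals so far under the floor have no order, and no ratio was taken for Shh. Ihh, the ligand of the growth plate of bones, gave 63.2 in knockout TA, 51.8 in wild-type TA, 69.6 in knockout heart and 38.7 in wild-type heart, under the floor on each array.

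Dhh, a ligand known from Schwann cells of peripheral nerves, gave 211.2 in knockout TA, 192.6 in wild-type TA, 92.2 in knockout heart and 147.5 in wild-type heart on 1434959_at. The TA arrays were thus the higher ones, and the knockout heart array alone lay under the floor. In TA the knockout was 1.10-fold higher (log2 ratio 0.13). In heart it was at least 1.46-fold lower (log2 ratio -0.54), and with the deposited signals in place of the floor the log2 ratio was -0.68, past the 1.5-fold line. The second Dhh probe set, 1422127_at, was under the floor throughout, with 25.7 and 34.4 in knockout and wild-type TA and 8.1 and 9.7 in knockout and wild-type heart. The Schwann cell markers with a probe set of their own numbered 8. All 8 reached the floor on both TA arrays, where their summed signal was 19282 (knockout) and 18036 (wild type). In heart 3 of 8 reached it on the knockout array and 4 of 8 on the wild-type array, with sums of 3710 and 4342. Most of these sums came from Pmp22, at 2745 and 3304, and the myelin gene Mbp was under the floor there at 40.6 and 45.4. In wild type 7 of the 8 were higher in TA and 1, Sox10, was not. Sox10 gave 133.2 and 134.3 in knockout and wild-type TA and 155.9 and 135.6 in heart on its brightest probe set. Its probe set 1451689_a_at gave 132.4 and 199.8 in TA and 11.7 and 26.1 in heart. The part of Schwann cells in the Dhh signal was not tested. In such bulk RNA, fewer cells of a type and less RNA per cell cannot be told apart.

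The receptor gene Ptch1 and the transducer gene Smo were present in both tissues with small differences. Ptch1 gave 1168 in knockout TA, 1074 in wild-type TA, 1151 in knockout heart and 913 in wild-type heart on 1428853_at, so wild-type heart was the lowest and the others lay close together. The knockout was 1.09-fold higher in TA and 1.26-fold higher in heart (log2 ratios 0.12 and 0.33). The other 2 Ptch1 probe sets were under the floor on every array, at up to 87.1.

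Smo gave 817 in knockout TA, 880 in wild-type TA, 1008 in knockout heart and 892 in wild-type heart on 1427049_s_at, a probe set whose suffix marks that it can match several transcripts. Knockout TA was the lowest and knockout heart the highest, 1.08-fold below and 1.13-fold above their wild types. The second measured Smo probe set, 1427048_at, gave 283.6 and 386.3 in knockout and wild-type TA and 334.5 and 279.0 in knockout and wild-type heart. There the knockout was lower by 1.36-fold in TA but higher by 1.20-fold in heart, the same directions with larger sizes. The remaining Smo probe set was under the floor.

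Hhip, which binds the ligands at the cell surface and is transcribed in response to the pathway, was measured in TA alone. On 1455277_at its signal was 162.1 in knockout TA, 185.6 in wild-type TA, 6.8 in knockout heart and 12.5 in wild-type heart. Both TA arrays lay above the floor and both heart arrays far under it. Knockout TA was 1.14-fold lower than wild-type TA (log2 ratio -0.20), and for heart no ratio was taken. The other 3 Hhip probe sets were under the floor on all arrays, with 30.9 to 78.1 on the TA arrays and 1.1 to 21.9 on the heart arrays.

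The Gli factors were measured on all 4 arrays. Gli1, an activator whose transcription is the most used readout of the pathway, gave 141.8 in knockout TA, 151.3 in wild-type TA, 149.0 in knockout heart and 110.9 in wild-type heart on its single probe set. Wild-type heart was the lowest and lay just above the floor. The knockout was lower by 1.07-fold in TA and higher by 1.34-fold in heart (log2 ratios -0.09 and 0.43). In heart, then, Gli1 and Ptch1 were both higher in the knockout pool, and both stayed under 1.5-fold.

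Gli2, the main activator of the pathway, gave 515.2 in knockout TA, 507.1 in wild-type TA, 320.3 in knockout heart and 300.2 in wild-type heart on 1459211_at. The TA arrays were the higher pair, and the genotypes differed little within a tissue, with the knockout 1.02-fold higher in TA and 1.07-fold higher in heart. Its second probe set, 1446086_s_at, gave 182.7 and 167.8 in knockout and wild-type TA and 104.8 and 122.8 in knockout and wild-type heart. The TA arrays were again the higher pair. The knockout was 1.09-fold higher in TA and 1.17-fold lower in heart, so the probe sets pointed in opposite directions in heart.

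Gli3, the main repressor of the pathway in the absence of ligand, gave 339.2 in knockout TA, 429.6 in wild-type TA, 357.1 in knockout heart and 389.1 in wild-type heart on 1456067_at. The knockout array was the lower one in each tissue, 1.27-fold in TA and 1.09-fold in heart. On 1455154_at the signals were 224.1 and 270.2 in knockout and wild-type TA and 218.9 and 239.4 in knockout and wild-type heart, which was 1.21-fold and 1.09-fold lower in the knockout. Both measured probe sets thus had the knockout lower in both tissues. The ratio of 1.27-fold was the largest among the genes' own ratios in TA, and it was under 1.5-fold.

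Across these genes, no ratio taken with the floor reached 1.5-fold between knockout and wild type, and that of Dhh in heart is a lower bound. In TA, 0 of 7 measured genes were at least 1.5-fold higher or lower in the knockout, where 8.64% of all 11528 measured genes were, 4.20% higher and 4.44% lower. The log2 ratios ran from -0.34 for Gli3 to 0.13 for Dhh with a median of -0.09, against -0.01 over all measured genes. Of the 7, 3 lay above 0 and 4 below. In heart, 0 of 6 measured genes passed with signals raised to the floor, and Dhh would be the 1 past the line with its deposited signals, where 6.86% of all 11452 did, 2.67% higher and 4.19% lower. Their log2 ratios ran from -0.54 for Dhh to 0.43 for Gli1 with a median of 0.13, against -0.002 over all measured genes, and 4 lay above 0 and 2 below. With so few genes a count of 0 lies near these shares. Among 1472 measured genes in TA and 1457 in heart that had a mean signal of 1 to 2 times the floor, like Dhh and Gli1, 13.0% and 14.9% were 1.5-fold apart. In heart the central part of these dim genes, from the 5th to the 95th percentile, ran from log2 -0.74 to 0.60, which takes in both Dhh and Gli1. All 7 ratios in TA lay between the 5th and the 95th percentile of all measured genes (-0.55 and 0.55). In heart 5 of 6 lay between them (-0.54 and 0.47), with Dhh at the lower edge. The genes with several measured probe sets, Smo, Gli2 and Gli3, kept 1 direction over their probe sets in 3 of 3 cases in TA and in 2 of 3 in heart.

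**Figure D2:**
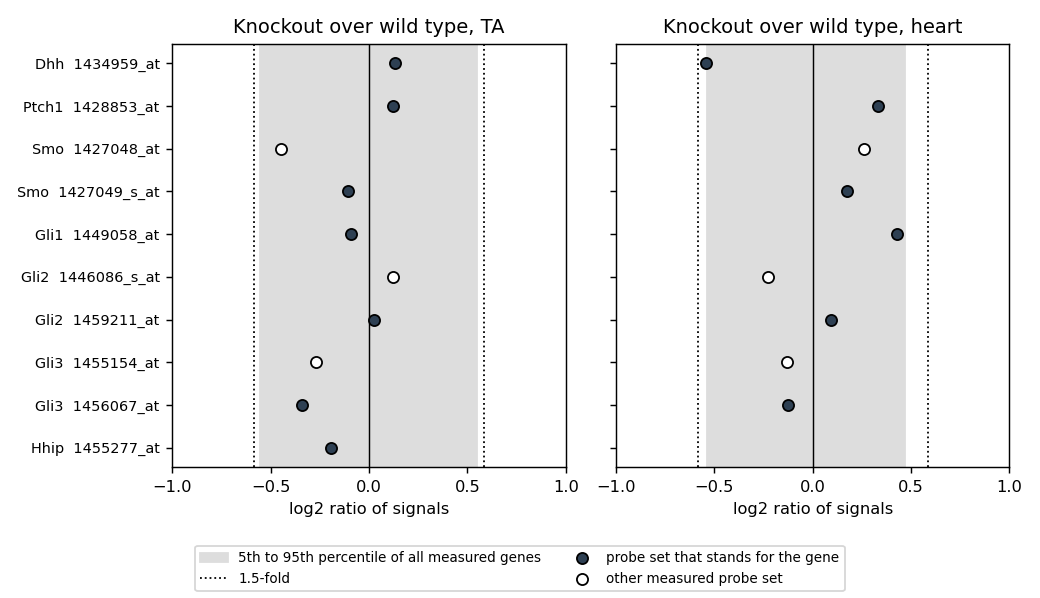
Log2 ratio of knockout over wild-type signal for each measured probe set in TA (left) and heart (right), with filled points for the probe set that stands for a gene and open points for others. The grey band spans the 5th to the 95th percentile of all measured genes, and all points lie between the dotted 1.5-fold lines. The Dhh point in heart is a lower bound on the size of the difference.

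Between the tissues, Hhip and Gli2 differed most. In wild type, Hhip was at least 1.83-fold higher in TA than in heart, and Gli2 was 1.69-fold higher. Gli1 was 1.36-fold, Dhh 1.31-fold, Ptch1 1.18-fold and Gli3 1.10-fold higher in TA, and Smo was 1.01-fold lower. The median log2 ratio over the 7 measured genes was 0.38, against -0.07 over all measured genes, and 6 of 7 lay above 0, as did 44.8% of all measured genes. With signals raised to the floor, 0 of 7 ratios reached 2-fold, but that of Hhip is a lower bound, and its log2 ratio was 3.89 with the deposited signals. Among all 11872 measured genes, 15.4% reached 2-fold, 7.56% higher and 7.80% lower in TA. At 1.5-fold, a limit added after the values were seen, 2 of 7 were higher and 0 lower, beside 14.5% and 18.0% of all measured genes (32.6% either way).

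The knockout arrays, which hold other pools of RNA, gave the tissue comparison once more. Hhip was at least 1.60-fold and Gli2 1.61-fold higher in knockout TA than in knockout heart. On its second probe set Gli2 was 1.37-fold higher in TA in wild type and 1.74-fold in the knockout, so both of its probe sets had TA higher in both genotypes. Dhh was at least 2.08-fold higher in TA in the knockout. It was the 1 ratio of 7 past 2-fold there with the floor, and that of Hhip is again a lower bound, from signals of 162.1 and 6.8. On these arrays 8.48% of all 11833 measured genes were 2-fold higher in TA and 8.12% lower (16.6% either way). Gli1, Ptch1 and Gli3 differed by at most 1.05-fold between the tissues in the knockout, with log2 ratios of -0.07, 0.02 and -0.07. On the other measured Gli3 probe set, 1455154_at, the log2 ratio there was 0.03, of the opposite sign. Gli1 was thus higher in TA in wild type alone, and its heart signal was 149.0 (knockout) and 110.9 (wild type). Smo was 1.24-fold lower in knockout TA, and its second probe set was 1.38-fold higher in TA in wild type and 1.18-fold lower in the knockout.

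**Figure D3:**
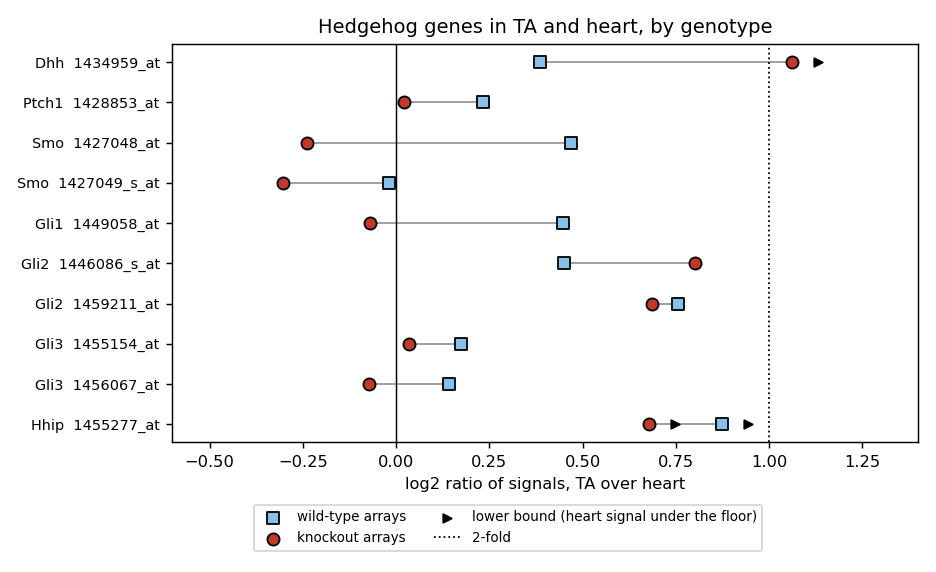
Log2 ratio of TA over heart signal for the 10 measured probe sets, with squares for the wild-type arrays and circles for the knockout arrays, joined by a line. Arrowheads mark lower bounds. Gli2 on both probe sets, Hhip, Dhh, Ptch1 and Gli3 1455154_at lie right of 0 in both genotypes, the last 2 close to 0 in the knockout. Smo 1427048_at, Gli1 and Gli3 1456067_at lie on opposite sides of 0 in the genotypes.

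The promoters of Hhip, Gli2 and Dhh are shown, since these were the genes past 1.5-fold between the tissues in 1 or both genotypes. They are RefSeq sequences of the build GRCm38.p6, from 250 bases before to 50 bases after the start of the gene, which the table gives for 7 of the 9 genes. Capitals mark the GC box GGGCGG or its reverse complement.
Hhip (chr8:80057959-80058258, minus strand): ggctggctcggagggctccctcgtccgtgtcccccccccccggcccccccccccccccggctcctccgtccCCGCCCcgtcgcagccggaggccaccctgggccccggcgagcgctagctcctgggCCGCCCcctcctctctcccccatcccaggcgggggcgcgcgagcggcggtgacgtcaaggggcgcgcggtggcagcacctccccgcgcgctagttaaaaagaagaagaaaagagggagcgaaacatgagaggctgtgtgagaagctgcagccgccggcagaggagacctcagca
Gli2 (chr1:119053570-119053869, minus strand): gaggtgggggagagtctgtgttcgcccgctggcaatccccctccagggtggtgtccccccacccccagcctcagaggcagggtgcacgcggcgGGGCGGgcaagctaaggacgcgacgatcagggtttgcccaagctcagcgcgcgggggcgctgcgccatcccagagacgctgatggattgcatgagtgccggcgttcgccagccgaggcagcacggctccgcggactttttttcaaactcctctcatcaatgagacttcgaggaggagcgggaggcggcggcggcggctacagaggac
Dhh (chr15:98898491-98898790, minus strand): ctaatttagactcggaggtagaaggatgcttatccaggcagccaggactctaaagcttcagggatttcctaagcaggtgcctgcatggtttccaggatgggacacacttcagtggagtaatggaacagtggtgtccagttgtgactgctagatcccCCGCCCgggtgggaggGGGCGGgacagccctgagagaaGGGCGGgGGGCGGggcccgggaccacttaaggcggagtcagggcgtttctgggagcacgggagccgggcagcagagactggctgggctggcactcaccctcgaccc
The GC box was found in 2 places in the Hhip promoter, 1 in that of Gli2 and 4 in that of Dhh. It stood in 6 of the 7 promoters, all but that of Smo, and in 35.7% of the 32851 promoters in the table. The G and C content was 73.7% for Hhip, 67.3% for Gli2 and 61.7% for Dhh, against a median of 52.7% over all promoters. The Gli binding motif GACCACCCA, searched on both strands, was in 0 of the 7 promoters and in 0.253% of all promoters. The E-box CAGCTG, a motif of myogenic factors that reads the same on both strands, was in 0 of the 7 and in 16.3% of all. The GC box and the E-box were chosen after the values were seen. These matches describe these windows of 300 bases only.

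Markers of several cell types differed between the tissues along with Hhip, Gli2 and Dhh. Markers of satellite cells, the stem cells of muscle, reached the floor in 7 of 7 on both TA arrays and in 3 of 7 on both heart arrays, with Pax7 at 456.9 and 571.8 in knockout and wild-type TA and at 3.7 and 5.0 in heart. Of these 7 markers 6 were higher in TA in wild type, and Vcam1 was 1.68-fold lower. Tendon markers summed to 28089 and 31687 on the knockout and wild-type TA arrays and to 1615 and 1594 on those of heart. Cartilage and bone, where Ihh is known to act, had markers that reached the floor in 5 and 4 of 12 in knockout and wild-type TA and in 3 of 12 on both heart arrays. Fibroblast markers went both ways, with 6 of 11 higher and 5 lower in wild-type TA and a median log2 ratio of 0.14. Their sums were 163648 and 178820 in knockout and wild-type TA and 131319 and 139953 in heart, while Tcf21 was at least 9.91-fold lower in wild-type TA. Endothelial markers ran the other way, with sums of 15790 and 16713 in TA and 26607 and 25962 in heart. Epicardial markers did so as well, with 2 of 7 at the floor in TA and 7 of 7 in heart. The part of these cells in the tissue differences was not tested.

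The steps before the receptor, acylation and release of the ligands, were measured in few genes. Hhat, the acyltransferase itself, was under the floor on every array on both probe sets, with 89.1, 34.4, 89.7 and 69.9 on 1455962_at in knockout TA, wild-type TA, knockout heart and wild-type heart. Of the 7 genes listed for these steps, 4 were measured in TA and 3 in heart. Hhatl was the 1 gene past 1.5-fold in each, beside 8.64% and 6.86% of all measured genes. Disp1, which releases the lipid-bearing ligand from its cell, gave 268.1 and 253.4 in knockout and wild-type TA and 181.3 and 222.2 in knockout and wild-type heart. The knockout was 1.06-fold higher in TA and 1.23-fold lower in heart. Scube2, a secreted carrier of the ligand, was lower in the knockout by 1.23-fold in TA and 1.15-fold in heart.

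Co-receptors help Ptch1 bind ligand, and Gpc3, which is not one, was listed with them. All 4 measured genes of this list were higher in TA in both genotypes, as were 44.8% (wild type) and 46.3% (knockout) of all measured genes. Of the 4, 2 were at least 2-fold higher in wild type, Cdon and Gpc3, beside 7.56% of all measured genes. Cdon gave 1487 in knockout TA, 1773 in wild-type TA, 819 in knockout heart and 838 in wild-type heart, which was 2.11-fold higher in TA in wild type and 1.81-fold in the knockout. Boc gave 547.5 and 416.4 in knockout and wild-type TA and 241.9 and 240.6 in heart, or 1.73-fold and 2.26-fold higher in TA in wild type and knockout. Gas1 was 1.25-fold and 1.19-fold higher. Gpc3, a glypican that competes with Ptch1 for the ligands, gave 2790 and 2519 in knockout and wild-type TA and 1031 and 688 in knockout and wild-type heart, and was 3.66-fold higher in TA in wild type. Between genotypes 0 of the 4 passed 1.5-fold in TA or in heart, beside 8.64% and 6.86% of all measured genes. The largest log2 ratio was 0.58 for Gpc3 in heart, just short of that line, and for Boc in TA it was 0.39. The probe sets of Boc disagreed there, since 1426869_at gave 248.3 (knockout) and 308.4 (wild type).

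Genes of signal transduction between Smo and the Gli factors passed 1.5-fold between genotypes in 0 of 18 measured genes in either tissue. The shares of all measured genes were 8.64% in TA and 6.86% in heart. The medians on the log2 scale were -0.001 in TA and -0.10 in heart. In TA 9 of the 18 lay above 0 and 9 below. In heart 5 lay above 0 and 13 below, beside 5691 and 5755 of all 11452 measured genes. On the brightest probe sets, the largest ratio in TA was that of Itch, a ubiquitin ligase gene, at 1.43-fold higher. In heart it was that of Gpr161, a ciliary receptor that restrains the pathway, at 1.26-fold lower. The probe sets of Itch disagreed. On 1431316_at the signals were 166.8 and 101.7 in knockout and wild-type TA and 202.3 and 104.8 in heart, past 1.5-fold in both. On 1459332_at they were 195.6 and 210.7 in TA. Dimmer probe sets of some other listed genes also passed 1.5-fold, so the count of 0 holds for the brightest probe sets. Between wild-type tissues 1 of 18 passed 2-fold, beside 15.4% of all measured genes. This was Evc2, whose product binds Smo in the cilium, with 283.3 in TA and 132.7 in heart, 2.13-fold higher in TA. Its partner gene Evc was 1.47-fold higher, and Spop, which marks Gli proteins for breakdown, 1.90-fold.

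Among the genes of the primary cilium, Ift122 was lower in both knockout pools. Its product belongs to the transport complex that carries proteins back from the ciliary tip, and its loss in mice leads to excess Hedgehog activity. On 1441259_s_at the signals were 1078 in knockout TA, 2278 in wild-type TA, 967 in knockout heart and 1534 in wild-type heart. The knockout was the lower array in each tissue, 2.11-fold in TA and 1.59-fold in heart. A second probe set, 1427239_at, gave 274.6 and 637.0 in TA and 292.9 and 447.5 in heart, again lower in the knockout. Ift122 was the 1 gene of 21 measured past 1.5-fold in TA on the brightest probe sets, and also in heart. Of all measured genes 8.64% and 6.86% were. The other cilium genes had medians near 0 (0.05 in TA and -0.02 in heart over all 21). In TA, Ift57 was 1.43-fold, Ift172 1.38-fold and Ift20 1.31-fold higher in the knockout. In heart Ift88 was 1.48-fold lower, and Bbs2 was 1.44-fold and Ift81 1.42-fold higher. A dimmer Ift81 probe set, 1449407_at, gave 2769 in knockout heart and 1785 in wild-type heart, past 1.5-fold. Dimmer probe sets of other genes in the list passed it in heart as well, in both directions. Ift81 differed most between tissues, with 552.1 and 534.0 in knockout and wild-type TA and 5133 and 3610 in knockout and wild-type heart, 6.76-fold lower in wild-type TA.

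Genes known to respond to Hedgehog signals in other tissues are listed here with Gli1, Ptch1, Hhip and 3 of the co-receptors among them. The list does not separate genes that the pathway raises from genes that it lowers, so its medians are no readout of pathway activity. Of the listed genes, 14 were measured in each knockout comparison. In TA 0 of 14 passed 1.5-fold (median -0.06 on the log2 scale), beside 8.64% of all measured genes. Mycn, a growth regulator, was 1.30-fold lower on its brightest probe set. Its probe sets disagreed in TA, since 1425922_a_at gave 120.5 (knockout) and 36.1 (wild type, under the floor). In heart the median was 0.01, and 1 of 14 passed, beside 6.86% of all measured genes. This was Ccnd1, the cyclin D1 gene, with 1420 in knockout TA, 1785 in wild-type TA, 2050 in knockout heart and 3173 in wild-type heart on 1417420_at. It was 1.55-fold lower in knockout heart and 1.26-fold lower in knockout TA. The other 2 probe sets were lower in the knockout too, but the sizes differed. On 1448698_at the signals were 1606 and 1656 in knockout and wild-type TA and 1854 and 2141 in heart, under 1.5-fold in both. On 1417419_at they were 241.7 and 380.7 in TA and 300.4 and 427.2 in heart, past 1.5-fold in TA alone. Genes of cell division were lower in both knockout pools, with summed signals of 5231 against 11739 in TA and 6629 against 17072 in heart. Their relation to Ccnd1 was not tested. The Notch ligand gene Jag2 was 1.35-fold higher in knockout heart, and Bcl2 was 1.37-fold lower on its brightest probe set. The probe sets of Bcl2 disagreed there, since 1440770_at gave 243.0 (knockout) and 222.6 (wild type), while its others were lower in the knockout. Between wild-type tissues, Ccnd2 was 4.04-fold, Cdk6 2.85-fold, Sfrp1 2.80-fold and Foxc2 at least 2.65-fold lower in TA than in heart. These 4 lay in the opposite direction to Hhip, and of the 15 genes of this list measured there 8 were higher and 7 lower in TA. Foxf1, Foxf2, Foxl1, Snai1 and Nkx2-2 were under the floor on every array.

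**Figure D4:**
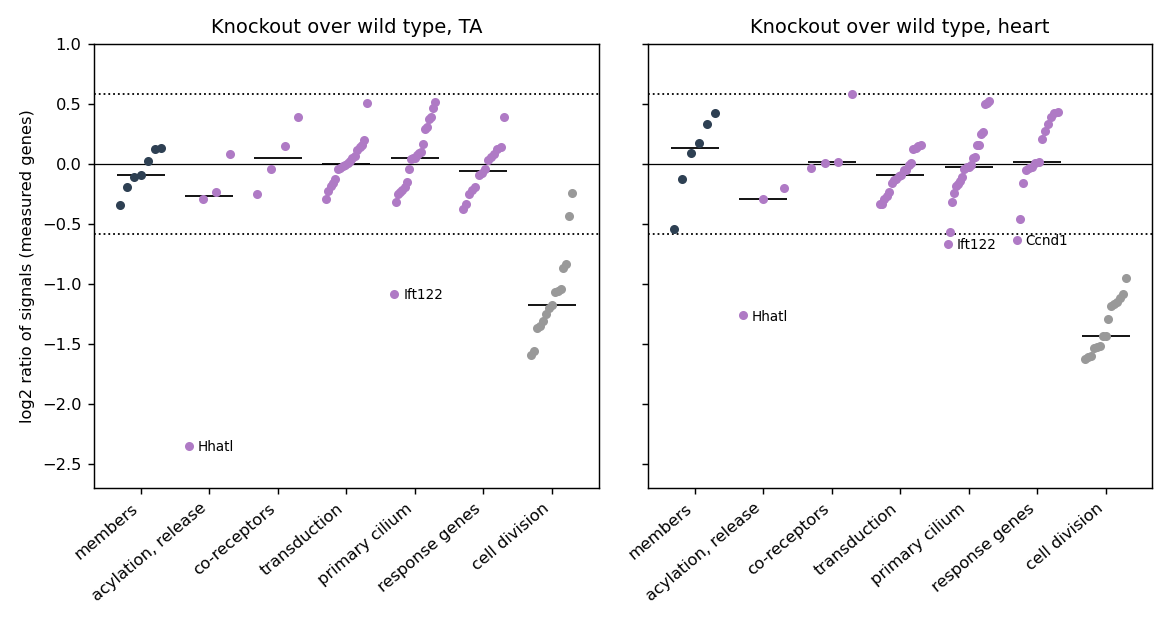
Log2 ratio of knockout over wild-type signal for each measured gene of the Hedgehog lists and, for reference, of cell division genes, in TA (left) and heart (right). Bars are medians, dotted lines mark 1.5-fold, and genes of the Hedgehog lists past it are named: Hhatl and Ift122 in both tissues and Ccnd1 in heart. Each gene is drawn by its brightest probe set, and genes under the floor are not drawn.

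Taking the 69 other pathway genes once each and leaving out Hhatl, 54 were measured in each knockout comparison. In TA 0 were 1.5-fold higher and 1 lower, and in heart 0 were higher and 2 lower. These were Ift122 in TA, and Ift122 and Ccnd1 in heart, beside 8.64% and 6.86% of all measured genes. The medians on the log2 scale were 0.03 and -0.04. Between wild-type tissues 55 were measured, of which 3 were 2-fold higher and 5 lower in TA, a share near the 15.4% of all measured genes.

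The pattern over the 4 arrays was compared with that of 10160 other genes at or above the floor on all arrays, by the Euclidean distance between centred log2 signals. This is a description over 4 points, and many genes lie close. Closest to Gli2 were Map3k20 and Ago2, at distances of 0.03 and 0.05, and 211 genes lay within 0.2. For Gli1 they were Inca1 and AA388235 (0.04 and 0.06), with 157 genes within 0.2. For Ptch1 they were Csad and Mbtps2 (both 0.04), for Smo Cachd1 and Atp13a1 (both 0.03), and for Gli3 Rtel1 and Stk17b (both 0.03).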

How the data were processed

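RNA of TA and heart was hybridised to Affymetrix mouse arrays, 1 array for each genotype and tissue. Each deposited value is the signal intensity of 1 probe set, on a linear scale. The submitters' processing notes name MAS5 as the tool. No source used here states its version or target, or holds detection calls. Trimmed means (2% left off at each end) were 496.2 to 496.7 on the 4 arrays, so they share 1 scale. In the platform annotation 34945 of 45037 probe sets name 1 gene, 932 several and 9160 none. All 9 genes matched a RefSeq gene by identifier.

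Ratios are log2 of signals raised to the floor of 101.3, computed with Python 3.11.15, numpy 2.4.6 and pandas 2.3.3, and the computation was tested on simulated data. There are no replicates, and no test was made; a fold of 1.5 (genotypes) or 2 (tissues) was counted. The number of arrays limits the precision. Genes named outside the 9 were, per list, up to 4 with the largest ratios in a comparison. For marker lists up to 2 were planned. The markers named were not always those with the largest ratios, and more were named for Schwann cells. The 5 response genes under the floor, the GC box and the E-box were chosen after the values were seen. The genes and lists were chosen with earlier results of these data known. Alternatives were other floors or an added 32, centring, quantile normalization and other choices of probe set. Protein sequences were not used here.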

Additional observations from a re-analysis of the deposited data

Results flagged for a closer look

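With 1 array for each group, a gene meets the criterion of opposite directions in the tissues whenever its ratios have opposite signs, which 3 of the 6 genes measured in both tissues did. For Dhh the log2 ratio of knockout over wild type was above 0 in TA and below 0 in heart, and the TA value exceeded that of heart by at least 0.68, since the knockout heart signal was raised to the floor. For Smo the order was the other way round, with a difference of -0.28, and for Gli1 likewise, with a difference of -0.52. None of these 3 differences was tested.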

How the results depend on the processing

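Apart from a change of the fold itself, the counts of genes past a fold differed only under the 3 settings that let in dim signals. With no floor, 1 gene (Shh) passed 1.5-fold in TA and 4 did in heart (Shh and Ihh higher, Dhh and Hhip lower). At a floor of 26.8, the 25th percentile, 2 passed in heart, Ihh higher and Dhh lower, and with log2(signal + 32) in place of a floor 1 did, Shh. Between wild-type tissues 1 gene, Hhip, passed 2-fold under each of these 3 settings. Its log2 ratio was at least 2.79 for the lower floor, 3.89 with no floor and 2.29 with the added 32. Counting at 1.5-fold, chosen after seeing the data, gave 2. At a floor of 471.5, the 75th percentile, the log2 ratio of Gli2 between tissues was at least 0.11 in place of 0.76. It is a lower bound there, since the wild-type heart signal of 300.2 was raised to that floor. The counts at that floor were 0 too, but of only 3 measured genes in TA, 2 in heart and 3 between the wild-type tissues. So few genes say little about the others. Centring, both quantile normalizations, the median over probe sets and the omission of probe sets that can match several transcripts also left the counts at 0. Under these the numbers measured were 7, 6 and 7. The median of the measured genes ran from -0.09 to 0.02 in TA, 0.08 to 0.25 in heart and 0.11 to 0.46 between wild-type tissues. The medians of 0.02 and 0.11 were those at the floor of 471.5, where each was the ratio of Gli2. Of 168 values of single genes, 162 stayed on their side of the fold and within 1.5-fold of the value reported. No paired analysis was possible because the groups share 1 replicate number only, with 1 array each. A fit that takes both tissues as replicates of a genotype was not run.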
